A study of Homo sapiens with 8 samples.

Results

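Of the 22184 probes read on each array, 62 were silent in untreated Jurkat cells and switched on after 1 µM SAHA (0.279% of the table). A probe was taken as silent when its detection p-value was 0.05 or more on all 4 untreated arrays, and as on when that value was below 0.01 on both arrays of the 1 µM group. The detection p-value is the share of the array's negative-control probes that are at least as bright as the probe, so a high value means a signal that cannot be told from background. There were 8601 silent probes, and 0.721% of them passed the second limit. The probes were thus chosen by their detection p-values on the untreated and the 1 µM arrays. For that reason their levels in those groups are given as a description, and the 0.5 µM arrays took no part in the choice. Of the 62 probes, 55 have a gene name and stand for 54 genes on 17 chromosomes, with STEAP1 read by a pair of probes, and 7 have no gene named.

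Jurkat is a human T cell leukaemia line. The study compared messenger RNA levels in untreated TR1 cells, in TR1 cells given 0.5 µM or 1 µM SAHA for 12 h, and in untreated parental cells, called WT. WT cells are sensitive to TRAIL, a tumour necrosis factor relative whose binding to death receptors on the cell surface starts apoptosis. TR1 is a single resistant clone that was obtained by keeping Jurkat cells under 1000 ng/mL TRAIL for 12 weeks, so a feature of TR1 may belong to that clone alone. Each of the 4 groups had 2 arrays, described in the labels as biological duplicates. The labels do not say whether the duplicates came from separate cultures, and p-values then measure only the spread between these samples. SAHA-treated WT cells were not analysed here.

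SAHA (suberoylanilide hydroxamic acid, vorinostat) blocks histone deacetylases, the enzymes that take acetyl groups off the tails of histones and off other proteins. Acetylated histones mark open chromatin, and inhibitors of these enzymes are known to raise the transcripts of some genes that a cell type normally keeps quiet, while lowering those of others. Genes of nerve cells and the cell cycle inhibitor CDKN1A are well-known examples of transcripts that rise under such inhibitors in cancer cells.

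Median signals ran from 77.6 to 115 on the 8 arrays, and 53.7% to 58.5% of probes per array were detected at a p-value below 0.05. Of 12 T cell markers on the array, 11 were detected on all 8 arrays, which include CD3E, CD3G and LCK. Of 21 markers of other blood lineages, 11 (such as MS4A1, PAX5, CD14 and MPO) were detected on none, and 9 on all 8. The summed signal of these 21 was 2604 to 2975 at 1 µM SAHA and 2136 to 2624 in untreated TR1 cells. It was 2621 to 2628 at 0.5 µM and 2779 to 2903.5 in untreated WT cells. None of the 62 probes belongs to that list of markers. The dimmest array was one of the untreated TR1 pair (median 77.6, against 95.6 on the other), and the brightest was one of the 1 µM pair (115 against 103). Before normalization 59 of the 62 probes were brighter on that 1 µM array than on the other, and 29 were after it.

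The promoters of 38 of the 54 genes were found in the RefSeq promoter table (build GRCh38.p14), and the 250 bases before the start of the transcript are shown for the 6 of them with the largest change at 1 µM, to set their differing base composition side by side. They lie at chr12:49294897-49295146 (plus strand, PRPH), chr7:38631374-38631623 (minus strand, AMPH), chr9:124011518-124011767 (plus strand, LHX2), chr2:203936513-203936762 (plus strand, ICOS), chr5:147510069-147510318 (minus strand, DPYSL3) and chr2:203535302-203535551 (minus strand, RAPH1). Capitals mark matches on either strand to the GC box (GGGCGG or its reverse complement CCGCCC), the TATA box (TATAAA or TTTATA) and the CCAAT box (CCAAT or ATTGG).
PRPH: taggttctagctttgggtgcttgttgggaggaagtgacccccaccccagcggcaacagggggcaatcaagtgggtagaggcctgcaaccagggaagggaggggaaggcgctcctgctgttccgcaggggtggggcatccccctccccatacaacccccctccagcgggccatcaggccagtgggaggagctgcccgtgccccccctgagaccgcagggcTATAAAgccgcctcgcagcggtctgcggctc
AMPH: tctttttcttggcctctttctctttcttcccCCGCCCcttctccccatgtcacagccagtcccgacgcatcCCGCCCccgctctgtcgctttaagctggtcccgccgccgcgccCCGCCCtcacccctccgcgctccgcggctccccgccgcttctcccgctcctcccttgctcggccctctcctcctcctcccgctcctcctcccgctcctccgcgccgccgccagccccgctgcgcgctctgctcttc
LHX2: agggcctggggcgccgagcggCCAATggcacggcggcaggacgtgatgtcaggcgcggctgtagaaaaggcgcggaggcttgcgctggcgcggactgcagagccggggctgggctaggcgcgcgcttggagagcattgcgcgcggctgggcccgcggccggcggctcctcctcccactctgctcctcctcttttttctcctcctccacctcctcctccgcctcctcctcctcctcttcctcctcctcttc
ICOS: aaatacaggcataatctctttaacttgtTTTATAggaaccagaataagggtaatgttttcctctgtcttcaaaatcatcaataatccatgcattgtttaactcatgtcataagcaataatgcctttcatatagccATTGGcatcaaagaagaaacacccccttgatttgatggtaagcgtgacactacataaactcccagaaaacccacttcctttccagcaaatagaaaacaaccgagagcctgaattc
DPYSL3: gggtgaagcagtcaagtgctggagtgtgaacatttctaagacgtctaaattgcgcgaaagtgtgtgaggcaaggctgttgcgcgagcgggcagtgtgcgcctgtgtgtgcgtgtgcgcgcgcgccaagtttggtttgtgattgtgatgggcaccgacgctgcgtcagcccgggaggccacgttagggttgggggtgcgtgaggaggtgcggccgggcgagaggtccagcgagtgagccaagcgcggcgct
RAPH1: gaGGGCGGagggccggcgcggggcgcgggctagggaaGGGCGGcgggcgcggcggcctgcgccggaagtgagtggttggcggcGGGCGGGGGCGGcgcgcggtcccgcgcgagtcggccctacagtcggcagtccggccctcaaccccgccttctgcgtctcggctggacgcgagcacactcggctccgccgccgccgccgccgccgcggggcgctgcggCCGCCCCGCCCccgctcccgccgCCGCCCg
RAPH1 held 7 GC boxes, some of them touching, and 49 CpG dinucleotides, while AMPH held 3 GC boxes and 28 CpG. PRPH, LHX2, ICOS and DPYSL3 held no GC box in these bases, and ICOS, with 2 CpG, was the poorest of the 6. For the TATA box, PRPH held TATAAA near the start of the transcript, and ICOS held TTTATA near the far end of the window. LHX2 and ICOS held a match to the CCAAT box. Over the 38 promoters the median was 14 CpG, against 10 for all silent genes with a promoter in the table and 21 for genes detected on all 4 untreated arrays. A GC box was present in 19 of the 38, against 44.9% of the silent genes' promoters, 67.1% of those of the detected genes and 42.3% of all promoters in the table. A TATA box was present in 3 of the 38, against 13.8% for silent genes and 11.1% for all promoters. CCAAT was present in 28.9%, against 33.5% for silent genes and 33.0% for all promoters. The E-box CACGTG and the cyclic AMP response element TGACGTCA were in 0 of the 38, against 6.49% and 1.77% of all promoters. These are matches of letters in a window of fixed length.

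The untreated levels were at background in both lines. In raw signal the 62 probes ran from 61.3 to 89.4 and from 49.0 to 70.7 on the untreated TR1 arrays, where detection at p below 0.05 began at 89.7 and 70.7. On the WT arrays they ran from 67.0 to 94.9 and from 63.1 to 86.2, with detection beginning at 95.6 and 86.6. At 0.5 µM SAHA they reached 75.8 to 142 and 77.9 to 159, and at 1 µM 108 to 218 and 107 to 252. Their medians on the 1 µM arrays were 119 and 144, where the median probe of the table, detected or not, read 103 and 115.

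**Figure D1:**
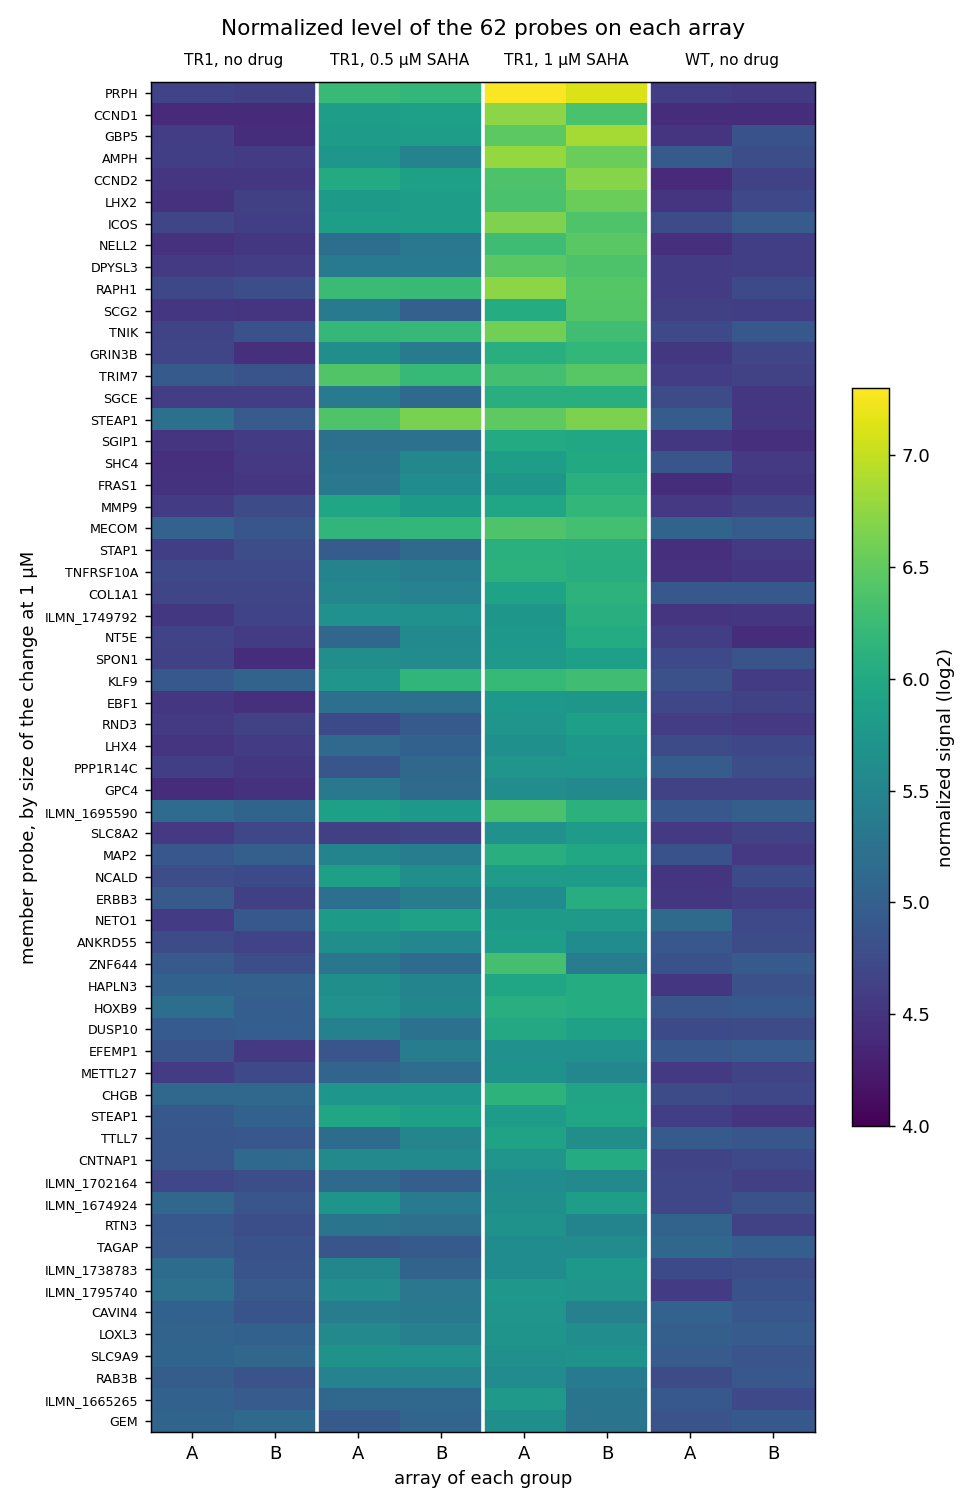
Normalized log2 signal of each of the 62 probes (down the page, ordered by the size of the change at 1 µM) on each of the 8 arrays (across, A and B being the 2 arrays of a group). The untreated TR1 and WT columns are dark throughout, the 0.5 µM columns are intermediate with bright lines for PRPH, RAPH1, TNIK, TRIM7, STEAP1 and MECOM, and the 1 µM columns hold the highest values, led by PRPH.

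After background correction, quantile normalization and log2, the median over the 62 probes was 4.74 in untreated TR1, 5.46 at 0.5 µM, 5.92 at 1 µM and 4.70 in WT cells, where the median of all 13407 probes tested was 7.67 in every group. All 62 passed the filter for testing, which the rule ensured by requiring detection on both 1 µM arrays. Of them, 48 were also below 0.05 on both 0.5 µM arrays. Of all silent probes, 249 passed the filter. Between TR1 and WT cells limma called 0 of the 62, against 7.65% of all probes tested, and 6 were higher and 1 lower in TR1 at an unadjusted p below 0.05. The median difference of the 62, TR1 minus WT, was 0.03 on the log2 scale. These untreated levels lie below the detection limit and were held there by the choice of the probes.

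Because the untreated level is only an upper limit, folds over untreated cells are written as "at least". They set the mean of the brighter group against the mean, over the untreated arrays, of the lowest signal that was still detected on that array or the probe's own value where that was higher. They are computed on the normalized scale, from which background has been taken off, and can therefore exceed the ratio of the raw signals, in which background is part of both groups. They are bounds only on that scale. By this measure the 62 probes were at least 1.21-fold to 4.06-fold higher at 1 µM SAHA than in untreated TR1 cells, with a median of 1.67, and 17 of them reached a bound of 2-fold. Against WT cells the bound ran from 1.29 to 4.32 with a median of 1.77. As a description, the fit called 61 of the 62 higher at 1 µM than in untreated TR1, where 12.6% of all probes were called higher, and the rule had used that contrast. GEM, a small GTP-binding protein, was the member not called. Against WT, which the rule also used, 62 were called higher at 1 µM and 17.1% of all probes were.

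**Figure D2:**
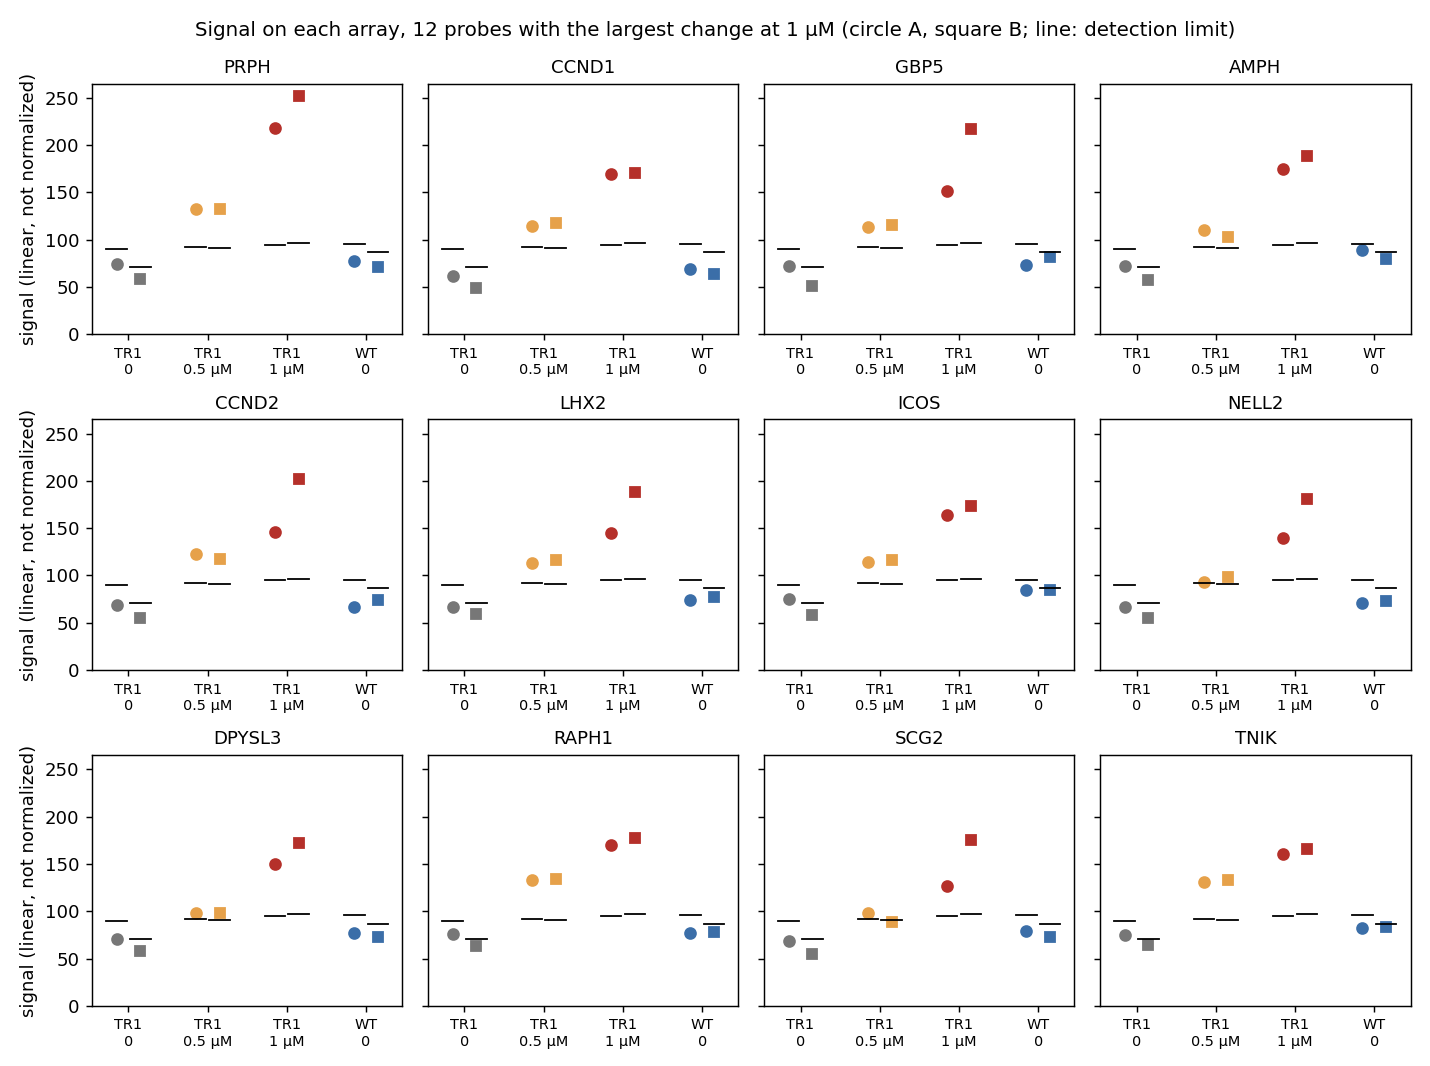
Raw signal (linear, not normalized) on each of the 8 arrays for the 12 probes with the largest change at 1 µM, in untreated TR1, at 0.5 µM, at 1 µM and in WT cells; circles are array A, squares array B, and short lines mark the lowest signal detected at p below 0.05 on that array. All untreated points lie under their lines, the 1 µM points lie at 127 or above, and the 0.5 µM points lie between 88.5 and 134.

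The functional group with the most genes, in a sorting made after the members were known, comprised 11 genes. Most of them belong to the neuronal cytoskeleton or to secretory or synaptic vesicles. The signalling and the matrix groups held 10 genes each, so the rank rests on how single genes were sorted. All 11 genes of the largest group were on at 1 µM by choice. At 0.5 µM 4 of them were also on and 7 lay between silent and on. Of all 62 members, 22 were on and 34 in between at that dose, and 0.279% of all silent probes were on. PRPH encodes peripherin, an intermediate filament protein of peripheral neurons. Its signal was 74.4 and 58.6 in untreated TR1, 133 and 132 at 0.5 µM, 218 and 252 at 1 µM, and 77.7 and 70.9 in WT cells. Both arrays of each dose stood above all arrays of the lower dose and of WT, with no overlap. PRPH stood at least 4.06-fold higher at 1 µM and at least 2.05-fold higher at 0.5 µM than in untreated TR1, and it was 1.98-fold higher at 1 µM than at 0.5 µM. The ratio of its raw signals, 1 µM over untreated TR1, was 3.54. AMPH encodes amphiphysin, which bends membranes when synaptic vesicles are taken back up. It read 72.4 and 56.9 in untreated TR1, 111 and 103 at 0.5 µM, 174 and 189 at 1 µM, and 89.4 and 79.8 in WT cells. The 1 µM arrays of AMPH lay far above those at 0.5 µM (2.09-fold by the group means), and both 0.5 µM arrays lay above all untreated ones. DPYSL3, a protein of axon growth cones, read 70.3 and 57.7 in untreated TR1, 98.3 and 98.6 at 0.5 µM, 150 and 172 at 1 µM, and 77.4 and 72.9 in WT cells. The doses did not overlap with each other or with untreated cells, and DPYSL3 was 2.08-fold higher at 1 µM than at 0.5 µM.

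The granule proteins secretogranin II and chromogranin B, which are packed with hormones into dense-core vesicles, were both in the set. SCG2, which encodes secretogranin II, read 68.6 and 54.4 in untreated TR1, 97.9 and 88.5 at 0.5 µM, 127 and 176 at 1 µM, and 78.7 and 73.1 in WT cells. The 1 µM arrays of SCG2 differed from each other more than those of most members, and both still lay above 0.5 µM. CHGB was already at 110 and 112 at 0.5 µM and was at 132 and 140 at 1 µM, against 86.5 and 70.2 in untreated TR1 and 84.2 and 76.7 in WT cells. Of the other vesicle and cytoskeleton genes, MAP2 (dendritic microtubules) read 130 and 143, SGIP1 (endocytosis) 126 and 143 and RAB3B (vesicle release) 108 and 110 at 1 µM. NCALD, CNTNAP1 and TTLL7 completed this group, at 113 to 147 in raw signal at 1 µM. In this group 10 of the 11 were called higher at 0.5 µM, where 44 of all 62 members and 4.42% of all probes tested were, TTLL7, a tubulin-modifying enzyme, being the exception (adjusted p = 0.0955 by limma).

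Both D-type cyclins in the set, which push cells from the growth phase towards DNA synthesis, were on at both doses. CCND1 read 61.3 and 49.0 in untreated TR1, 115 and 117 at 0.5 µM, 170 and 171 at 1 µM, and 68.8 and 63.4 in WT cells. All untreated arrays of CCND1 lay below both doses, and the doses did not overlap. CCND2 read 68.4 and 54.9 in untreated TR1, 122 and 118 at 0.5 µM, 146 and 202 at 1 µM, and 67.0 and 74.1 in WT cells. CCND1 stood at least 2.57-fold higher at 1 µM and at least 1.60-fold higher at 0.5 µM than in untreated TR1. CCND2 stood at least 2.56-fold higher at 1 µM and at least 1.70-fold higher at 0.5 µM.

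Of the 6 receptors and surface enzymes, TNFRSF10A bears on the study's subject, since it encodes a death receptor of TRAIL. It read 76.6 and 61.5 in untreated TR1, 102 and 99.8 at 0.5 µM, 132 and 148 at 1 µM, and 71.2 and 68.5 in the TRAIL-sensitive WT cells. The transcript was thus not above background in either untreated line, and the values of the doses did not overlap. TNFRSF10A stood at least 1.88-fold higher at 1 µM and at least 1.19-fold higher at 0.5 µM than in untreated TR1, and limma called it at 0.5 µM (adjusted p = 0.00543), a comparison with untreated arrays that the choice of probes had required to be silent. ICOS, a costimulatory receptor of activated T cells, read 75.1 and 58.2 in untreated TR1, 114 and 116 at 0.5 µM, 164 and 174 at 1 µM, and 84.3 and 84.6 in WT cells. It stood at least 2.55-fold higher at 1 µM than in untreated TR1, and its 1 µM arrays lay above both arrays at 0.5 µM. GRIN3B and NETO1, a glutamate receptor subunit and a partner of such receptors, ERBB3, a receptor tyrosine kinase, and NT5E, an enzyme that makes adenosine, completed this group. NETO1 read 71.2 and 66.1 in untreated TR1, 113 and 118 at 0.5 µM, 116 and 131 at 1 µM, and 94.9 and 77.7 in WT cells, and its arrays of both doses overlapped.

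The other genes of the TRAIL pathway were looked at for comparison, in a list of 34 probes for death receptors, their ligands and caspases. Of these, 21 were tested, the member TNFRSF10A among them. At 1 µM 3 were higher, TNFRSF10A included, and 2 lower than in untreated TR1. At 0.5 µM 1 was higher (TNFRSF10A) and 1 lower (LTB). Over all probes tested, 12.6% were called higher and 12.7% lower at 1 µM, and 4.42% higher and 2.78% lower at 0.5 µM. The list's median log2 change at 1 µM was -0.15, against -0.02 over all probes tested. TNFRSF10B, the other death receptor of TRAIL, was far above background without drug. Its detected probe read 765 and 579 in untreated TR1, 858 and 919 at 0.5 µM, 1137 and 1505 at 1 µM, and 614 and 726 in WT cells. It rose by 0.61 on the log2 scale at 1 µM (limma adjusted p = 0.00834) and was not called at 0.5 µM (0.27, adjusted p = 0.226). TNFRSF21, a further death receptor, rose by 0.49 at 1 µM (limma adjusted p = 0.0177). CFLAR, which encodes an inhibitor of caspase activation at death receptors, fell by 0.75 (limma adjusted p = 0.0163), and LTB, which encodes lymphotoxin beta, fell by 0.58 (limma adjusted p = 0.00518). The decoy receptor probes for TNFRSF10C and TNFRSF10D were not tested, being detected on 1 and 0 of the 8 arrays.

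The 7 transcription factors were LHX2, LHX4, HOXB9, MECOM, KLF9, EBF1 and ZNF644. LHX2, a homeobox factor of forebrain and blood progenitor development, read 66.7 and 58.7 in untreated TR1, 113 and 117 at 0.5 µM, 145 and 188 at 1 µM, and 73.5 and 77.7 in WT cells. Its doses did not overlap, and it stood at least 2.42-fold higher at 1 µM than in untreated TR1. MECOM, a zinc finger factor of blood stem cells, read 84.8 and 65.5 in untreated TR1, 129 and 132 at 0.5 µM, 147 and 168 at 1 µM, and 92.8 and 85.0 in WT cells. It was at least 2.00-fold higher at 0.5 µM and at least 2.25-fold higher at 1 µM than in untreated TR1, and the doses did not overlap. KLF9 was the 1 member among 13 silent probes in a list of 34 probes for genes known to respond to such inhibitors. It read 81.7 and 69.2 in untreated TR1, 110 and 131 at 0.5 µM, 137 and 166 at 1 µM, and 85.6 and 71.0 in WT cells. ZNF644 had the most uneven 1 µM pair, at 143 and 112 (SD 0.66 on the log2 scale, n = 2), against 82.2 and 63.2 in untreated TR1 and 86.2 and 84.1 in WT cells.

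In the list of inhibitor-responsive genes, 23 of the 34 probes were tested. Against untreated TR1, 7 were higher and 1 lower at 0.5 µM, with 12 higher and 1 lower at 1 µM. Without the member KLF9, 22 probes were tested, with 6 higher and 1 lower at 0.5 µM and 11 higher and 1 lower at 1 µM. Over all probes tested, 4.42% were called higher and 2.78% lower at 0.5 µM, and 12.6% higher and 12.7% lower at 1 µM. The list's median log2 change at 1 µM, KLF9 included, was 0.36, against -0.02 over all probes tested. CDKN1A, whose product halts the cell cycle, has 2 probes, of which 1 was detected on all 8 arrays and the other on none. The detected probe read 201 and 174 in untreated TR1, 462 and 473 at 0.5 µM, 869 and 1067 at 1 µM, and 174 and 227 in WT cells. It rose by 1.33 at 0.5 µM and by 2.25 at 1 µM on the log2 scale (limma adjusted p = 0.00453 and 0.00014). STC1, a secreted hormone, and THBS1, a matrix protein of the same list, came close to membership. STC1 read 70.8 and 58.9 in untreated TR1, 116 and 119 at 0.5 µM, 136 and 163 at 1 µM, and 80.3 and 96.1 in WT cells, where the second array detected it. THBS1 read 74.4 and 50.2 in untreated TR1, 89.4 and 91.9 at 0.5 µM, 104 and 120 at 1 µM, and 71.8 and 71.8 in WT cells, and its first 1 µM array missed the limit for being on.

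The signalling group held 10 genes, with kinases, adaptors and GTPase proteins, of which 3 were on, 4 in between and 3 silent at 0.5 µM. Of all 62 members, 22 were on, 34 in between and 6 silent at that dose. RAPH1, which encodes lamellipodin, an actin regulator of the cell edge, read 76.1 and 63.4 in untreated TR1, 133 and 134 at 0.5 µM, 170 and 178 at 1 µM, and 76.6 and 78.2 in WT cells. TNIK, a kinase of the Wnt pathway, read 74.9 and 64.4 in untreated TR1, 131 and 133 at 0.5 µM, 160 and 166 at 1 µM, and 82.7 and 83.6 in WT cells. On the normalized scale RAPH1 was at least 2.08-fold and TNIK at least 2.03-fold above untreated TR1 at 0.5 µM. RAPH1 was 1.28-fold and TNIK 1.18-fold higher at 1 µM than at 0.5 µM. GBP5, a guanylate-binding protein induced by interferon gamma, read 72.0 and 50.8 in untreated TR1, 113 and 116 at 0.5 µM, 151 and 217 at 1 µM, and 73.1 and 81.1 in WT cells. The 1 µM arrays of GBP5 were uneven, and the lower of them lay above both arrays at 0.5 µM. Of 43 probes listed for other interferon-stimulated genes, 19 were silent untreated. Among these 19 were 0 members, against 0.721% of all silent probes. Of its 23 tested probes, the list had 4 higher and 1 lower at 0.5 µM, and 4 higher and 3 lower at 1 µM. Over all probes tested, 4.42% were higher and 2.78% lower at 0.5 µM, and 12.6% and 12.7% at 1 µM. The list's median log2 change at 1 µM was 0.37, against -0.02 over all probes tested. STAP1, an adaptor first described in stem cells and B cells, read 72.5 and 63.1 in untreated TR1, 86.8 and 92.3 at 0.5 µM, 130 and 149 at 1 µM, and 70.2 and 71.0 in WT cells. Its change at 0.5 µM was not called (adjusted p = 0.102 by limma), and only 1 of its 0.5 µM arrays detected it.

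The 10 genes of matrix, adhesion and secreted proteins included 2 that were on at 0.5 µM and 8 in between, where 22 and 34 of all 62 members were. NELL2, a secreted glycoprotein of neurons, read 66.1 and 55.5 in untreated TR1, 93.5 and 98.0 at 0.5 µM, 140 and 180 at 1 µM, and 70.4 and 73.2 in WT cells. It stood at least 2.27-fold higher at 1 µM than in untreated TR1 and 2.15-fold higher at 1 µM than at 0.5 µM, the largest fitted fold between the doses among the 62. COL1A1, a chain of type I collagen, read 75.0 and 60.5 in untreated TR1, 103 and 102 at 0.5 µM, 121 and 154 at 1 µM, and 88.5 and 83.7 in WT cells. MMP9, a secreted protease that digests matrix, read 71.2 and 62.3 in untreated TR1, 119 and 114 at 0.5 µM, 122 and 158 at 1 µM, and 75.4 and 75.5 in WT cells. The dose arrays of COL1A1 and of MMP9 each lay above all untreated ones, and neither gene was called between the doses. SGCE, a sarcoglycan that helps to anchor cells to the matrix, read 71.7 and 57.8 in untreated TR1, 98.1 and 92.5 at 0.5 µM, 129 and 150 at 1 µM, and 84.2 and 69.2 in WT cells. FRAS1, SPON1, HAPLN3, EFEMP1, LOXL3 and GPC4, which encode further proteins of the matrix or the cell surface, ran from 109 to 152 at 1 µM. Of the group, 9 were called higher at 0.5 µM, where 44 of all 62 members and 4.42% of all probes tested were, EFEMP1, a fibulin, being the exception (adjusted p = 0.190 by limma).

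Transporters and other membrane proteins gave 6 probes of 5 genes. STEAP1, a metalloreductase-like membrane protein known from prostate tissue, was read by a pair of member probes. One probe read 89.4 and 66.9 in untreated TR1, 140 and 159 at 0.5 µM, 152 and 197 at 1 µM, and 90.0 and 69.1 in WT cells. The other read 81.8 and 68.6 in untreated TR1, 119 and 118 at 0.5 µM, 117 and 141 at 1 µM, and 78.0 and 68.3 in WT cells. Both probes were on at 0.5 µM, and after normalization 1 µM minus 0.5 µM came to 0.05 and -0.04 on the log2 scale. SLC8A2, a sodium and calcium exchanger, showed the opposite course, at 70.0 and 60.9 in untreated TR1, 75.8 and 77.9 at 0.5 µM, 111 and 133 at 1 µM, and 75.2 and 74.5 in WT cells. TRIM7, a ubiquitin ligase sorted with METTL27 and ANKRD55 into no group, read 82.5 and 64.9 in untreated TR1, 142 and 133 at 0.5 µM, 142 and 179 at 1 µM, and 78.0 and 74.0 in WT cells.

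The 0.5 µM arrays split the 62 probes by dose. By the same limits, 22 of them (35.5%) were already on, with a detection p-value below 0.01 on both 0.5 µM arrays. A further 34 lay in between, and 6 (9.68%) were still silent on both arrays. Among the 34, 20 had 1 of the arrays below 0.01, 26 had both below 0.05 and 8 had only 1 below 0.05. Of the other 8539 silent probes, 2 were on at 0.5 µM (0.023%), 275 in between (3.22%) and 8262 silent (96.8%). Seen from the lower dose, 24 of all 8601 silent probes were on at 0.5 µM (0.279%), and 22 of these 24 (91.7%) were on at 1 µM as well, where both doses were set against the same untreated arrays. The exceptions, named after their values were seen, were TMTC2 and a probe without a gene name. TMTC2 read 102 and 115 at 0.5 µM and 92.9 and 121 at 1 µM, so that 1 array of the higher dose was below its detection limit.

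**Figure D3:**
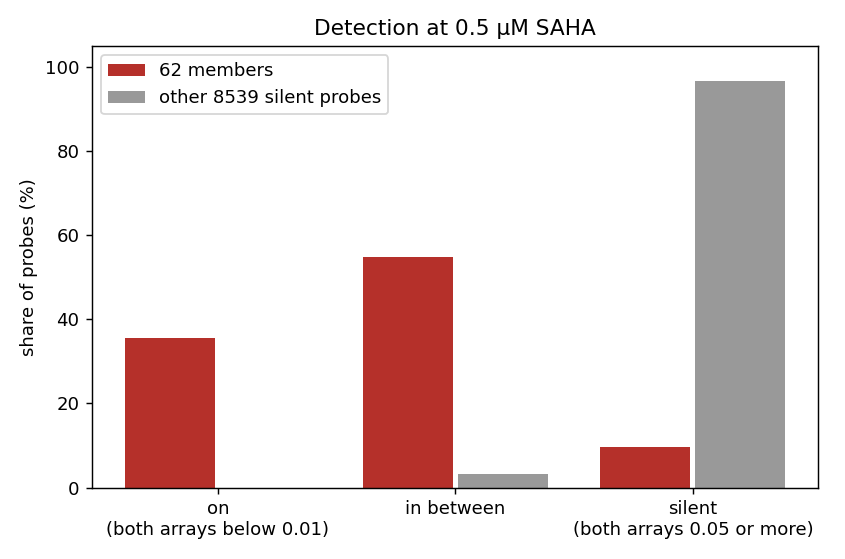
Share of probes (%) that were on, in between or silent on the 0.5 µM arrays, for the 62 probes (red) and for the other 8539 probes that were silent in all untreated arrays (grey). On probes made up 35.5% of the 62 and 0.023% of the others.

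These shares depend on the arrays and the limit used. Array A of 0.5 µM alone put 40 of the 62 on, and array B alone put 24, since on array B a probe needed a signal above 105.5 to reach a p-value below 0.01 and on array A one above 97.3. With a limit of 0.05 on both arrays, 48 of the 62 (77.4%) were on at 0.5 µM, against 1.22% of all silent probes. The number of members moved more: 40 were left when silent meant 0.1 or more and 22 at 0.2 or more, and 162 probes qualified when on meant below 0.05. Without WT array B in the rule there were 94, and without 1 µM array A there were 180.

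The 22 probes on at 0.5 µM had their highest signals for STEAP1, TRIM7, RAPH1, PRPH, TNIK and MECOM, whose normalized means at that dose were 6.51, 6.31, 6.23, 6.22, 6.20 and 6.18, although signals of different probes are not amounts that can be ranked as RNA. They were at least 1.31-fold to 2.52-fold above untreated TR1 at 0.5 µM, with a median of 1.59, and had a median bound of 2.18 at 1 µM. Between the doses their fold, 1 µM over 0.5 µM, ran from 0.957 (NETO1) to 1.98 (PRPH) with a median of 1.20. PRPH apart, none of the 22 was called between the doses. They had been picked for high signals on the 0.5 µM arrays, which favours a small difference between the doses.

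The 6 probes silent at 0.5 µM were RND3, LHX4, SLC8A2, TAGAP, GEM and a probe without a gene name. LHX4, a homeobox factor of pituitary and motor neuron development, read 67.5 and 57.3 in untreated TR1, 91.8 and 88.8 at 0.5 µM, 111 and 130 at 1 µM, and 83.9 and 76.9 in WT cells. LHX4 stood close under the detection limits of the 0.5 µM arrays, 92.0 and 90.8. TAGAP, a GTPase-activating protein of activated T cells, read 82.3 and 64.4 in untreated TR1, 84.6 and 86.0 at 0.5 µM, 109 and 122 at 1 µM, and 94.3 and 85.9 in WT cells. GEM read 85.5 and 70.7 in untreated TR1, 86.2 and 90.5 at 0.5 µM, 110 and 107 at 1 µM, and 86.7 and 83.6 in WT cells. Over the 6, the 1 µM level was at least 1.27-fold to 1.60-fold above that at 0.5 µM, the 0.5 µM level here being an upper limit. Being picked as silent at 0.5 µM and on at 1 µM favours such a difference.

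In the fit across all probes, 44 of the 62 were called higher and 0 lower at 0.5 µM than in untreated TR1 (limma, adjusted p below 0.05), where 4.42% of all probes tested were called higher and 2.78% lower. An unadjusted p below 0.05 was reached by 55, all of them higher. The 0.5 µM arrays were independent of the rule, but the untreated TR1 arrays had been required to be silent, and the fitted changes over them rest on signals below the detection limit. Both 0.5 µM arrays lay above both untreated TR1 arrays for 58 of the 62, against 27.1% of all probes tested, and above all 4 untreated arrays for 56. The median log2 change was 0.70, from -0.09 (GEM) to 1.57 (PRPH), against -0.01 over all probes tested. At 1 µM, where the rule had used the contrast, the median was 1.16, from 0.36 (GEM) to 2.56 (PRPH), against -0.02. The calls at 0.5 µM over untreated TR1 were 22 of the 22 probes on at 0.5 µM, 21 of the 34 in between and 1 (LHX4) of the 6 silent ones. These classes were set by detection on the same 0.5 µM arrays, which favours that order, so it is a description only. Against WT cells, whose arrays the rule had also required to be silent, 50 were called higher at 0.5 µM, where 11.5% of all probes were. The number of calls over untreated TR1 rested on every array compared: it was 25 without TR1 array A, 24 without TR1 array B, 27 without 0.5 µM array A and 24 without 0.5 µM array B, and 20 of the 44 probes were called in all 18 alternative settings. Sizes were also smaller with other background settings, with a median of 0.37 at 0.5 µM and 0.61 at 1 µM when no background was taken off.

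**Figure D4:**
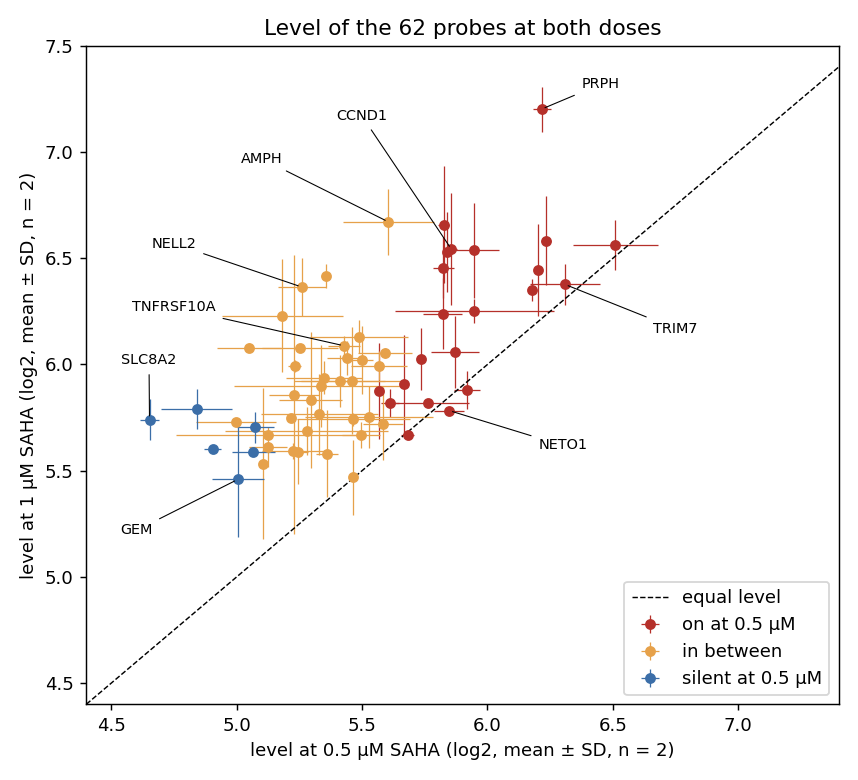
Normalized level (log2, mean ± SD, n = 2) of each of the 62 probes at 1 µM SAHA (up) and at 0.5 µM (across), coloured by its state at 0.5 µM, with a dashed line of equal levels. Probes on at 0.5 µM (red) lie near the line except PRPH and a few others, while AMPH and NELL2 (orange, in between) and SLC8A2 (blue, silent at 0.5 µM) lie well above it. The colours were set by detection on the same 0.5 µM arrays, which favours this order.

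Between the doses 12 of the 62 were called higher at 1 µM than at 0.5 µM and 0 lower, where 0.231% of all probes tested were called higher and 0.0895% lower. The rule had required the 1 µM arrays to be bright, so this count is a description. The same holds for its split by state at 0.5 µM, which was set on the 0.5 µM arrays compared here. The 12 were PRPH, AMPH, NELL2, DPYSL3, SCG2, SGCE, SGIP1, STAP1, TNFRSF10A, RND3, SLC8A2 and TAGAP, of which 1 was on, 8 in between and 3 silent at 0.5 µM. Their number fell to 0 in a fit of the 4 arrays compared and when any of these 4 arrays was left out, and to 5 without either untreated TR1 array. For TNFRSF10A the adjusted p was 0.0397 in the fit of all 8 arrays and 0.101 in that of the 4 arrays (limma). Both 1 µM arrays lay above both 0.5 µM arrays for 52 of the 62, against 23.6% of all probes tested.

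Other probes of the same genes give a reading that the rule did not use. Of the 54 genes, 12 had a further 17 probes that were not members, besides the pair for STEAP1. Of these 17, 6 were detected on all 4 untreated arrays, 8 on none and the others on some. The 6 belonged to TRIM7, MECOM, ZNF644 (2 probes), RTN3 and TAGAP. For these 5 genes another probe thus measured a transcript on every untreated array. The other probe of RTN3, a protein of the endoplasmic reticulum, read 2704 and 3574 at 1 µM and 2035 and 1718 in untreated TR1, while its member probe read 112 and 116 at 1 µM and 81.7 and 63.3 in untreated TR1. It rose by 0.38 at 1 µM (limma adjusted p = 0.0203). The other probe of MECOM read 135 and 165 at 1 µM and 116 and 119 in untreated TR1, and it was not called (log2 change -0.14, adjusted p = 0.687). The 2 other probes of ZNF644 read 208 to 332 at 1 µM and 143 to 199 in untreated TR1, and neither was called (log2 changes 0.03 and -0.03).

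DUSP10, a phosphatase that acts on stress kinases, was the gene whose other probe moved most. That probe read 177 and 229 at 1 µM and 102 and 76.8 in untreated TR1, and it rose by 1.33 on the log2 scale (limma adjusted p = 0.00122). It was already detected on 3 of the 4 untreated arrays, both untreated TR1 arrays among them. The member probe of DUSP10 read 125 and 137 at 1 µM and 83.1 and 67.8 in untreated TR1. For AMPH, RAPH1, NETO1 (2 probes) and RTN3 a further probe was detected neither in untreated nor in 1 µM cells. The other probe of AMPH read 75.0 and 78.6 at 1 µM and 72.8 and 54.8 in untreated TR1. Of the 17 probes, 12 had a positive change at 1 µM, some of them small and untested, such as those for AMPH (0.02) and GEM (0.07). Only the probe of DUSP10 and the bright one of RTN3 were called. The probes of ERBB3 (0.15 and 0.09), EFEMP1 (0.08) and TAGAP (0.36) were tested and not called. The share of positive changes over all probes was not counted, and the median change over all probes tested was -0.02. Which transcript variant each probe reads was not analysed here.

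**Figure D5:**
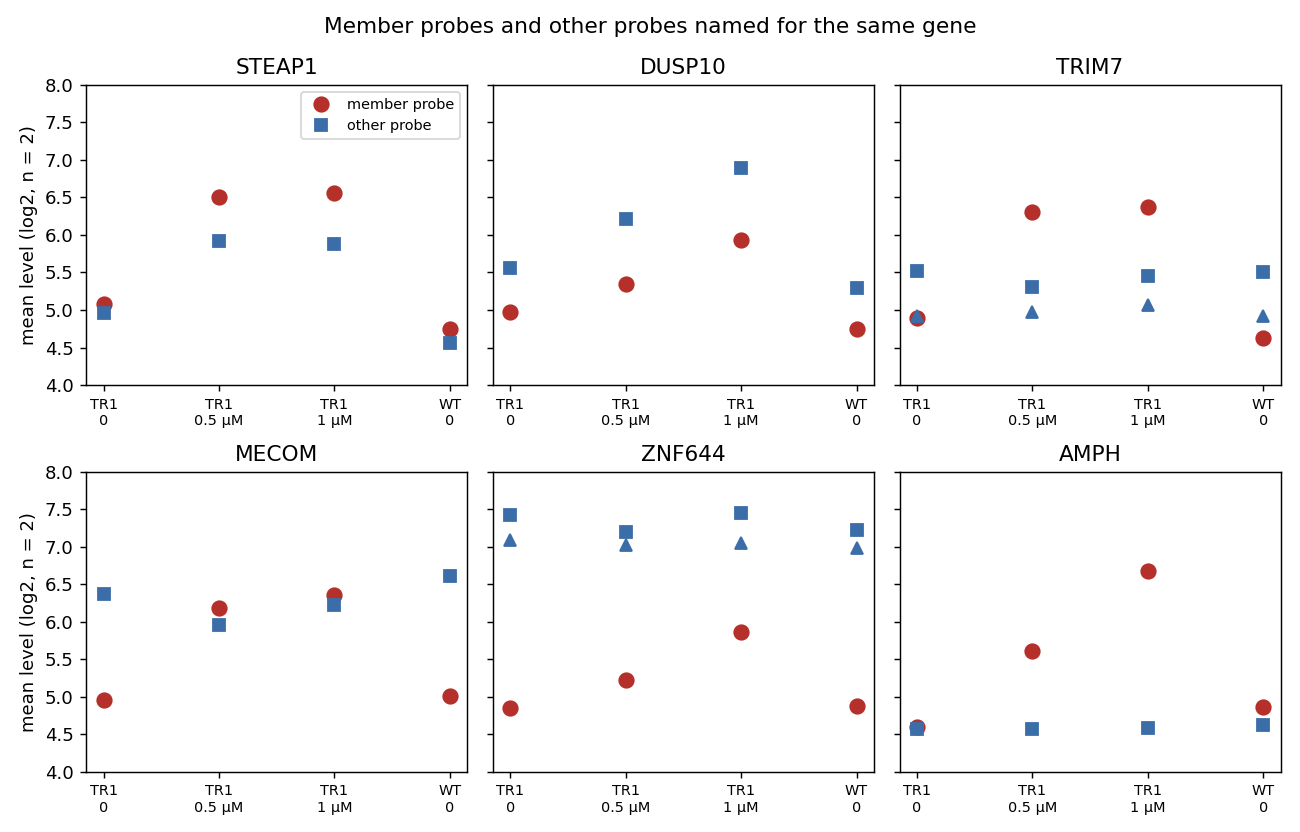
Mean normalized level (log2, n = 2) of member probes (red circles) and of other probes for the same gene (blue squares, and triangles for a further one) in the 4 groups; for STEAP1 the blue probe is also a member. The probes of STEAP1 and DUSP10 run in parallel, those of TRIM7, MECOM and ZNF644 do not, and the other probe of AMPH is flat at background.

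Probes just inside and just outside the limits show how narrow the definition is. On the silent side, 4 members shared the lowest untreated p-value, 0.0543: STEAP1, HOXB9, GEM and a probe without a gene name. HLA-DMB, FAM167A and TGFBR3 lay just outside, each with a p-value of 0.044 on a WT array and 0 on both 1 µM arrays. HLA-DMB, which helps to load peptides onto class II molecules, read 192 and 225 at 1 µM and 80.9 and 65.9 in untreated TR1. On the other side, RAB3B and 2 probes without a gene name were closest to being left out, while PMEL, TFAP2D and a probe without a gene name were among those that missed with a p-value of 0.011 on 1 µM array A. There were 51 probes on at 1 µM with exactly 1 untreated array below 0.05, for 13 of them between 0.04 and 0.05, and 120 silent probes with only 1 of the 1 µM arrays below 0.01. In the opposite direction, 5 of the 9554 probes that were on in all 4 untreated arrays were silent on both 1 µM arrays, and the 2 with a gene name were for UNG, a DNA repair enzyme, and ARSB, a lysosomal sulfatase, genes that have 3 probes each on the array.

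Against 20 lists of gene families and pathways, 15 of the 62 probes fell in at least 1 list and 47 in none. Of all silent probes, 0.721% were members. The neuronal list, which does not hold PRPH or AMPH, had 58 silent probes, of which 5 were members (DPYSL3, SCG2, MAP2, CHGB and RAB3B). Of its 38 tested probes that were not members, 3 were higher and 3 lower at 0.5 µM, and 11 were higher and 4 lower at 1 µM. The shares over all probes tested were 4.42% higher and 2.78% lower at 0.5 µM, and 12.6% higher and 12.7% lower at 1 µM. The median log2 change of the whole list at 1 µM, with the 5 members included, was 0.28, against -0.02 over all probes tested. NCAM1, a neural adhesion molecule, has 3 probes on the array. One read 253 and 325 at 1 µM and 109 and 82.1 in untreated TR1 and rose by 1.81 on the log2 scale (limma adjusted p = 0.000112). Another NCAM1 probe read 150 and 155 at 1 µM and 119 and 83.7 in untreated TR1 and was not called (0.36, limma adjusted p = 0.175), and the remaining one was detected on no array. VGF, a neuropeptide precursor, fell by 0.58 (limma adjusted p = 0.0106). Homeobox, forkhead and SOX factors had 111 silent probes and 3 members (LHX2, LHX4 and HOXB9), and solute carriers had 191 and 2 (SLC8A2 and SLC9A9).

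There was 1 member each among 174 silent probes for ion channels (GRIN3B), 201 for keratins, collagens, integrins and cadherins (COL1A1), 88 for regulators of the RAS superfamily (RAB3B), 174 for zinc finger genes (ZNF644), 145 for cytokines, chemokines and their receptors (TNFRSF10A), 13 for death receptors, ligands and caspases (TNFRSF10A) and 13 for inhibitor-responsive genes (KLF9). Lists of histones, metallothioneins, cancer-testis antigens, the BCL2 family, CDK inhibitors, interferon-stimulated genes, G protein-coupled receptors, tubulins with kinesins and dyneins, T cell markers and other blood lineage markers held 0 members. Cancer-testis antigens had 63 silent probes and G protein-coupled receptors 125. Of all silent probes, 0.721% were members. The share was 0.575% for ion channels, 0.498% for keratins, collagens, integrins and cadherins, 0.575% for zinc finger genes and 0.69% for cytokines. It was 1.14% for RAS regulators and, by 1 member each, 7.69% in both lists with 13 silent probes. Counts of 0 or 1 in lists of these sizes are a description only. Among the T cell markers, 25 probes were tested, and 1 was higher and 11 lower at 1 µM than in untreated TR1, with a median log2 change of -0.30. Over all probes tested, 12.6% were called higher and 12.7% lower. CD3E, a chain of the T cell receptor complex, fell by 1.05 on the log2 scale (limma adjusted p = 0.00101), while THEMIS, a signalling protein of developing T cells, rose by 1.16 (limma adjusted p = 0.0258). Whether the fall of these markers has a part in the levels of the 62 probes was not tested.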

How the data were processed

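RNA of 8 samples, 2 in each of 4 groups, was read on Illumina HumanRef-8 BeadChips. Per the file headers, the deposited table gives for each of 22184 probes and 8 arrays an intensity (linear, not normalized) and a detection p-value, which moved in even steps; p below 0.01 was therefore a p of 0. The submitters' processing notes name limma. The program that extracted the signals is not given in the sources used here. A second deposited table of intensity values looked quantile-normalized and served as an alternative. Columns were matched to groups, since their letters A and B do not name the labelled replicate numbers. Gene names came from the array's annotation, with 19715 probes having 1 symbol and 2469 none; 19695 matched a RefSeq gene.

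Signals were corrected and normalized with limma 3.58.1 in R 4.3.3 (neqc with detection p-values, offset 16, quantile, log2). Probes with a detection p below 0.05 on at least 2 arrays were kept (13407). A linear model with a mean per group was fitted to all 8 arrays (4 residual and 4.22 prior degrees of freedom; median standard error of a log2 change 0.127), with two-sided moderated tests and Benjamini-Hochberg adjustment over all 13407 probes; a probe was called below 0.05. The number of arrays limits the precision. The fit was tested on simulated data whose arrays did not differ in brightness, so that test does not cover such differences.

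The members, the 20 gene lists and the alternatives were chosen with earlier results of these data known, and the functional groups after the members were seen. The genes named are the 12 with the largest change at 1 µM, the 6 brightest on and the 6 silent at 0.5 µM, up to 4 members per list, the neighbours of each limit, members called between doses and other probes of the same genes; further members and genes of the lists were named after their values were seen. Alternatives varied background, offset, scaling, filter, variance model, the table used, the limits, the pairing of replicates and single arrays.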

Additional observations from a re-analysis of the deposited data

How the results depend on the processing

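Both median changes over untreated TR1, at 0.5 and at 1 µM, were above 0 under the alternatives tried, while sizes and counts moved. These medians were taken over the same 62 probes, chosen as silent untreated and on at 1 µM. A positive median at 1 µM was therefore set by that choice. The median at 0.5 µM rests on the same untreated arrays, held at background by the rule. The count of members called at 0.5 µM over untreated TR1 (44) ranged from 24 to 41 without 1 array and from 33 to 45 otherwise. The count between the doses (12) was 0 in the fit of the 4 arrays alone and ranged from 0 to 12 without 1 array. The median change at 0.5 µM (0.70) was 0.37 with no background correction, 0.57 with arrays scaled to the same median, 0.34 with an offset of 50 and 0.37 with the deposited value table, and 0.67 to 0.72 without 1 array. The median at 1 µM (1.16) was 0.61 with no background correction, 0.61 with an offset of 50 and 0.61 with the value table, and 1.15 to 1.29 without 1 array; the offset and the absence of background correction compress dim signals by construction. The number of members (62) was 40 and 22 with silent limits of 0.1 and 0.2, 162 with an on limit of 0.05, and 64 to 180 without 1 array, fewer arrays making the rule easier to pass; members on at 0.5 µM (22) became 48 with a limit of 0.05, and 24 to 40 with 1 array. Changes at 0.5 µM that turned sign, none of them called, were those of SLC8A2 (-0.13 with median scaling, -0.048 to 0.104 without 1 array) and TAGAP (-0.093 with median scaling, -0.024 to 0.070 without 1 array, negative without TR1 array B and at -0.001 without 0.5 µM array B). With a replicate block by array letter, 45 members were called at 0.5 µM and 15 between the doses, and with the labelled number as replicate block on the value table the counts were 40 and 17, with medians of 0.37 at 0.5 µM and 0.61 at 1 µM. Same-lettered arrays correlated at 0.090 to 0.276 in their deviations and same-numbered ones at 0.092 to 0.322, so not every pair passed 0.1 and no pairing was assumed. Signal over background limits these results, since every untreated level of the members lies below the detection limit.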
